A study of Homo sapiens with 40 samples.

Results

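SLUG knockout (KO) cells of the human triple-negative breast cancer line MDA-MB-231 were compared with wild-type (WT) cells of the same line by RNA-seq. The comparison comprised the 6 libraries labelled SLUG-KO 1 to 3 and MDA-MB-231-WT 1 to 3, out of 24 RNA-seq libraries and 40 samples in the whole series. The study asked here whether SLUG regulates SOX4 in these cells. The SLUG KO cells carried a CRISPR/Cas9 edit of SNAI2, the gene of SLUG, made with a single guide against the start of exon 1, which encodes the SNAG repressor domain. Living cells were sorted after the edit and single-cell colonies were expanded, whereas the WT cells were the untreated parental line. The number of clones behind the 3 SLUG KO libraries is not given in the sources used here, so the edit and any difference between a single-cell clone and its parental population cannot be told apart. All 6 cultures were grown as monolayers in DMEM with serum, and all 6 libraries carry the batch label UB-2871. A further 3 libraries of WT MDA-MB-231 cells given a control scramble siRNA (Csi), with the batch label HLNGWDSX7, are set beside these values without a test, because they belong to another batch and treatment.

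SLUG belongs to the SNAIL family of zinc-finger factors, which bind the E-box CAGGTG and mostly repress transcription through the SNAG domain. Such factors are known for lowering epithelial junction genes during epithelial-mesenchymal transition (EMT), the loss of epithelial traits by which carcinoma cells gain motility. SOX4 is a high-mobility-group transcription factor of progenitor cells that TGFβ induces and that is often high in breast cancer. MDA-MB-231 is a mesenchymal-like line, with vimentin and AXL among its abundant transcripts.

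Counts assigned to genes ranged from 21005560 to 24701438 across the 6 libraries. The 11 genes chosen as markers of the line were detected in all of them, with a summed level of 6191 to 7030 CPM (a gene's counts per 1000000 counts of its library) in WT and 6675 to 6906 CPM in SLUG KO. Markers of fibroblasts, blood and endothelial cells summed to 62.4 to 123 CPM in WT and 67.7 to 75.9 CPM in SLUG KO. Among the keratinocyte-like genes of the other cell lines of the series, the sums were 3195 to 4273 CPM in WT and 3283 to 3526 CPM in SLUG KO, and 5 of the 26 genes had no count in any of the 6 libraries.

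WT replicate 2 stood apart from the other WT libraries. Over 17428 tested genes the log2 CPM of WT replicates 1 and 3 had a Pearson correlation of 0.990, and the SLUG KO libraries were correlated at 0.990 to 0.992 with each other. WT replicate 2 reached 0.937 with WT replicate 1 and 0.931 with WT replicate 3. Among 11074 genes that were expressed in WT and similar between WT replicates 1 and 3, WT replicate 2 was over 2-fold higher in 1696 and over 2-fold lower in 1842. Across the tested genes, the departure of this library followed base composition. The difference between WT replicate 2 and the other WT libraries had a correlation of 0.659 with the GC content of the transcript across 17395 genes, which share the same libraries and are not independent. Its median ran from -0.878 (log2) in the fifth of genes with the lowest GC content to 1.00 in the fifth with the highest.

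**Figure D1:**
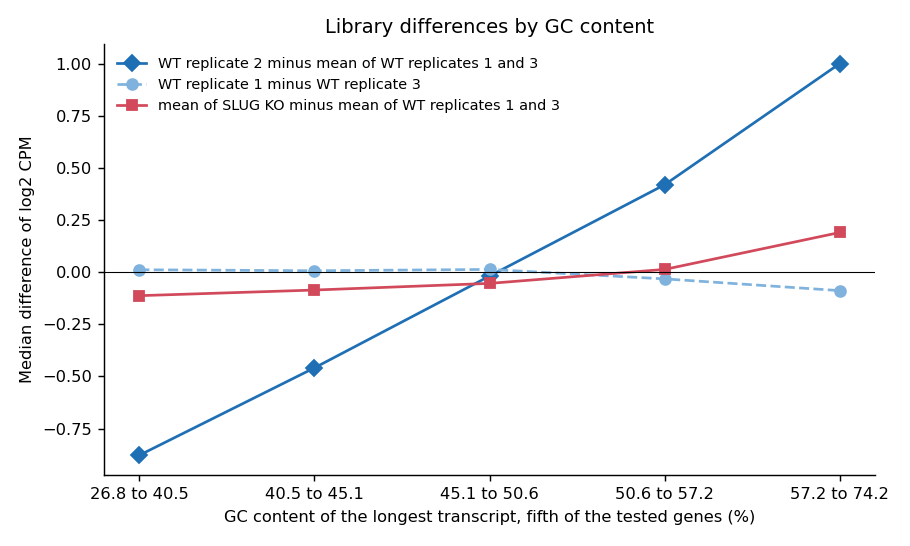
Median difference of log2 CPM between libraries (vertical axis) in 5 equal groups of tested genes ordered by the GC content of their longest transcript (horizontal axis, %). The line of WT replicate 2 against WT replicates 1 and 3 climbs from -0.878 to 1.00, that of WT replicate 1 against WT replicate 3 stays between -0.0888 and 0.0128, and that of SLUG KO against WT replicates 1 and 3 runs from -0.113 to 0.190.

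The 10 genes that were furthest above in WT replicate 2 included transcripts of the mitochondrial genome, and the 10 furthest below included small nuclear and nucleolar RNAs. The mitochondrial transcripts and the pseudogene MTATP6P1 had 42.7% to 47.7% GC, and the others of the 10 above had 59.0% to 70.9%. The 10 below had 33.3% to 55.2% GC. The GC trend thus does not describe all of the genes furthest apart. MT-ND6, a respiratory chain subunit, stood at 28.0, 875 and 24.5 CPM in WT replicates 1 to 3, and ATN1, a transcriptional corepressor, at 6.69, 175 and 4.64 CPM. The 3 SLUG KO libraries (23.2 to 26.0 CPM for MT-ND6 and 3.08 to 3.81 CPM for ATN1) lay with WT replicates 1 and 3. In the opposite direction, SNORA12, a small nucleolar RNA, had 25.8, 0.399 and 26.7 CPM, and MRPS36, a mitochondrial protein gene, 45.0, 3.46 and 51.0 CPM. The 3 Csi libraries were on the side of WT replicate 2 in 3176 of the 3538 genes that differed over 2-fold. Both differences were taken from the same mean of WT replicates 1 and 3, which makes the same sign more likely. No share over all compared genes is set beside this count, so it is a description only. Because of WT replicate 2, the counts of DEGs and of list members are given with all 6 libraries and again without this library. Single fold-changes are from all 6 libraries unless stated. What set WT replicate 2 apart was not tested.

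With all 6 libraries, 531 of 17428 tested genes (3.05%) were differentially expressed genes (DEGs, adjusted p under 0.05 in edgeR's quasi-likelihood test and an absolute log2 fold-change above 1). Of these, 217 were higher (1.25%) and 314 were lower (1.80%) in SLUG KO. Without WT replicate 2, 1329 of 17909 tested genes (7.42%) were DEGs, 601 higher (3.36%) and 728 lower (4.06%). The 514 DEGs found in both made up 96.8% of the first set and 38.7% of the second, and none of them changed direction. The variation between replicates that the test works against, the biological coefficient of variation, was 29.8% with all 6 libraries and 9.04% without WT replicate 2. The replicates are labelled as biological, and where they came from 1 clone the p-values measure only the spread between cultures of it.

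The knockout was made in SNAI2 (chromosome 8, 48917598 to 48921740, minus strand, GRCh38), and its RNA was not lower in the libraries labelled SLUG KO. SNAI2 stood at 34.7, 22.4 and 35.0 CPM in the WT libraries and at 64.8, 60.2 and 66.6 CPM in the SLUG KO libraries. Every SLUG KO library lay above every WT library. The log2 fold-change was 1.11 ± 0.21 (SE; adjusted p = 0.0399, edgeR), and 0.94 ± 0.10 (adjusted p = 2.54e-06) without WT replicate 2. By adjusted p alone, the SNAI2 call was lost without WT replicate 1 (adjusted p = 0.13), without WT replicate 3 (0.063), without SLUG KO replicate 1, 2 or 3 (0.211, 0.182 and 0.221) and with a filter of at least 10 counts in every library (0.0546). Its log2 fold-change was under 1 without WT replicate 2, with limma-voom (0.961) and with offsets for GC content and length (0.961). SNAI2 was therefore not a DEG in those fits. Counts over a gene's exons do not show a small insertion or deletion, so these values check neither the edit nor the label. In the paper, knockout clones were checked by ddPCR and immunoblotting.

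SOX4 (chromosome 6, 21593751 to 21598619, plus strand) was the gene with the smallest adjusted p. It stood at 46.0, 46.8 and 37.3 CPM in WT and at 0.688, 0.667 and 0.656 CPM in SLUG KO, while the Csi libraries held 132.6 to 140.9 CPM. The SLUG KO libraries were within a narrow band far below every WT library. SOX4 fell by 5.96 ± 0.22 on the log2 scale (adjusted p = 2.29e-04), and its log2 fold-change was -5.87 ± 0.16 (adjusted p = 1.28e-12) without WT replicate 2. SOX4 was the only 1 of the 7 SOX genes tested to pass in edgeR in either fit, and 2 of the 7 had an unadjusted p under 0.05 with all 6 libraries. DESeq2 tested 9 SOX genes and called 2. In the paper, neither transient SLUG knockdown nor SLUG overexpression changed SOX4 in MDA-MB-231 cells. SLUG rescue in the knockout cells restored SOX4 there.

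**Figure D2:**
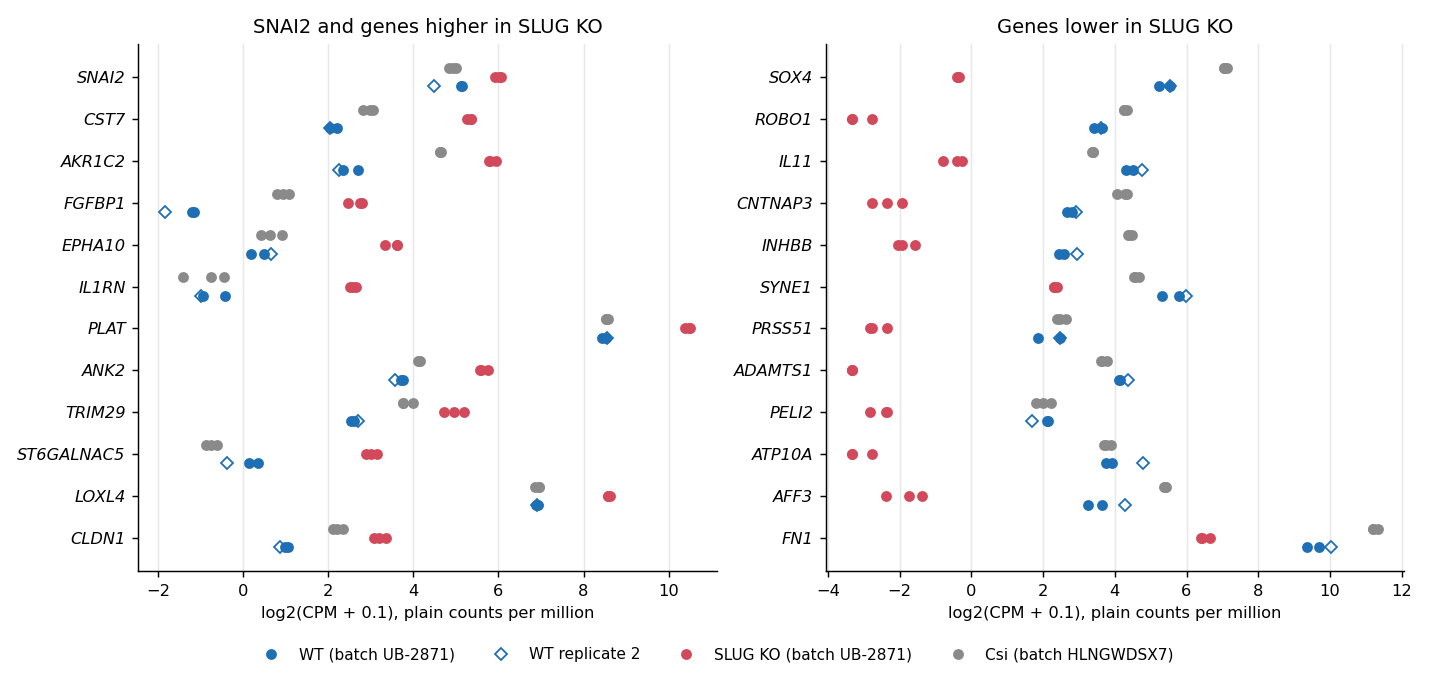
Level of each gene (horizontal axis, log2 of CPM + 0.1) in every library, for SNAI2, 11 leading protein-coding genes higher in SLUG KO and the 12 leading lower ones. WT replicate 2 is drawn as an open diamond, and the SLUG KO libraries do not overlap the WT libraries, which was a condition for choosing these genes other than SNAI2 and holds for 30.9% of all tested genes.

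The lower genes with the smallest adjusted p are described next. IL11, an interleukin of the IL-6 family with a part in bone metastasis, stood at 19.6, 26.9 and 22.6 CPM in WT and 0.729, 0.476 and 0.656 CPM in SLUG KO, a log2 fold-change of -5.16 ± 0.28 (-5.00 ± 0.20 without WT replicate 2). ROBO1, the receptor of SLIT guidance cues, had 12.4, 12.2 and 10.53 CPM in WT and a single count in 1 of the 3 SLUG KO libraries. The ratio of the pooled counts was 783.5, with a 95% counting interval from 140.6 to 30950. This interval covers counting error only, as do the other intervals and bounds given here.

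ADAMTS1, a secreted protease that cleaves proteoglycans, stood at 17.7, 20.5 and 17.3 CPM in WT and had no count in any SLUG KO library. Taking 3 counts over the group as the most that a count of 0 allows, ADAMTS1 was at least 412-fold lower. The Csi libraries held 12.2 to 13.8 CPM of it. ATP10A, a phospholipid flippase, went from 15.2, 27.7 and 13.3 CPM to 1 count, a ratio of 1246 with an interval from 223.6 to 49200.

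FN1, fibronectin, was the most abundant of the 12 lower genes. It held 824, 1045 and 652 CPM in WT and 84.9, 86.3 and 100.4 CPM in SLUG KO (log2 fold-change -3.17 ± 0.23, and -2.95 ± 0.10 without WT replicate 2). SYNE1, a giant nuclear envelope protein, went from 55.1, 62.9 and 39.9 CPM to 4.82, 4.81 and 5.16 CPM. INHBB, the beta B subunit of activin, had 5.35 to 7.63 CPM in WT and 0.141 to 0.238 CPM in SLUG KO. AFF3, a transcription elongation scaffold, had 9.44 to 19.5 CPM in WT and 0.0937 to 0.286 CPM in SLUG KO. PELI2, a ubiquitin ligase of innate signalling, had 3.15 to 4.27 CPM in WT and 5 counts in all of SLUG KO. PRSS51, a protease gene of the short arm of chromosome 8, had 3.55 to 5.44 CPM in WT and 4 counts in all of SLUG KO. CNTNAP3, a neurexin-like adhesion protein, had 6.23 to 7.41 CPM in WT and 0.0469 to 0.162 CPM in SLUG KO. CNTNAP3 has a near-identical copy, CNTNAP3B, so the split of reads between the copies is uncertain. CNTNAP3B was lower as well, with 1.21 to 1.73 CPM in WT and no count in any SLUG KO library.

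Among the higher genes with the smallest adjusted p, PLAT, tissue plasminogen activator, rose from 348, 373 and 367 CPM to 1430, 1344 and 1459 CPM. LOXL4, a lysyl oxidase that crosslinks matrix, rose from 122, 120 and 117 CPM to 383, 384 and 393 CPM. For both genes the spread within a group was small beside the gap between groups.

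CST7, a cystatin that inhibits lysosomal proteases, had the smallest adjusted p of the higher genes, with 4.01, 3.99 and 4.47 CPM in WT and 40.7, 38.3 and 40.5 CPM in SLUG KO. AKR1C2, a steroid-reducing enzyme, rose from 4.66 to 6.39 CPM in WT up to 54.9 to 61.8 CPM. Its near-identical neighbour AKR1C1 shares sequence with it, and the counts of the pair are uncertain as single genes. FGFBP1, a carrier of fibroblast growth factors, rose from 0.178 to 0.345 CPM up to 5.43 to 6.86 CPM. IL1RN, the antagonist of the interleukin 1 receptor, rose from 0.399 to 0.647 CPM up to 5.62 to 6.15 CPM. The other 5 were EPHA10, ANK2, TRIM29, ST6GALNAC5 and CLDN1, with log2 fold-changes of 2.01 to 3.21 with all 6 libraries.

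Non-coding RNAs were among the DEGs in both directions, with 27 long non-coding RNAs higher and 31 lower with all 6 libraries. They made up 12.4% of the higher and 9.87% of the lower DEGs, beside 17.1% of the tested genes. There were 92 higher (15.3%) and 175 lower (24%) without WT replicate 2, beside 18% of the tested genes. UCA1, a long non-coding RNA first known from urothelial cancer, rose from 3.24, 2.13 and 3.34 CPM to 16.5, 13.9 and 17.8 CPM. LINC00261, a neighbour of FOXA2, held 10.8, 9.94 and 9.82 CPM in WT and 0.162, 0.0952 and 0 CPM in SLUG KO. MIR137HG, the host transcript of miR-137, fell from 8.11, 11.6 and 7.31 CPM to 0.891, 0.905 and 1.36 CPM. The counting did not use strand, so reads of an RNA that overlaps another gene cannot be assigned to one of them.

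Some genes had almost no signal in 1 of the groups. Of the tested genes, 36 were under 0.1 CPM in every SLUG KO library and at 1 CPM or more in every WT library, and 35 of these were protein-coding. In the Csi libraries, 34 of the 36 were also at 1 CPM or more. GJA1, the gap junction protein connexin 43, and DAPK1, a death-associated kinase, are among them and are named after their values were seen. Neither had a count in SLUG KO, GJA1 being at least 141.5-fold and DAPK1 at least 169-fold lower. In the opposite direction 3 genes were under 0.1 CPM in every WT library and at 1 CPM or more in every SLUG KO library, namely KCNH5, a potassium channel gene, DDX53, an RNA helicase gene, and ENSG00000233103, a long non-coding RNA, all named after their values were seen. At the level of the Csi libraries, 160 of the 217 higher DEGs (73.7%) and 274 of the 314 lower DEGs (87.3%) were nearer to WT replicates 1 and 3 than to SLUG KO. Of the DEGs found without WT replicate 2, 322 of 601 (53.6%) and 449 of 728 (61.7%) were. The DEGs were chosen for a gap between these same WT and SLUG KO libraries. No share over all tested genes is set beside these shares, so they are descriptions only.

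Groups of genes were then examined by counting the members past the adjusted p alone. The share of all tested genes that passed was 3.33% with all 6 libraries and 31.2% without WT replicate 2, which splits into 1.45% higher and 1.89% lower, and 16.8% higher and 14.4% lower. The median log2 fold-change over all tested genes was -0.0519 and -0.0103. The member counts below are to be read against these shares.

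Among the EMT transcription factors, 14 of 20 were tested. With all 6 libraries, 2 were higher, SNAI2 and KLF8, and 2 were lower, SOX4 and HMGA2, and without WT replicate 2, 3 were higher and 3 lower. KLF8, a zinc-finger factor, held 0.627 to 0.932 CPM in WT and 3.14 to 3.70 CPM in SLUG KO. HMGA2, a chromatin architectural protein, went from 81.6, 87.8 and 58.2 CPM to 31.9, 31.6 and 36.3 CPM. The defining member ZEB1 held 126.9, 71.8 and 110.3 CPM in WT and 98.1 to 108.3 CPM in SLUG KO, with overlapping groups and a log2 fold-change of 0.04 ± 0.22 (adjusted p = 0.933), and -0.14 ± 0.09 (adjusted p = 0.242) without WT replicate 2. SNAI1, a close relative of SNAI2, held 0.820 to 2.04 CPM in WT and 0.364 to 0.563 CPM in SLUG KO and did not pass in either fit (adjusted p = 0.154 and 0.119).

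Epithelial junction and identity genes had members past the test in both directions. Of 36 tested members, 4 were higher and 2 were lower with all 6 libraries, and without WT replicate 2, 16 were higher and 2 were lower. The median log2 fold-change was 0.32 and 0.26. The higher members were junction and surface proteins such as CLDN1, a claudin of tight junctions, which stood at 1.98, 1.73 and 1.88 CPM in WT and 8.34, 8.998 and 10.2 CPM in SLUG KO. ST14, the serine protease matriptase, rose from 2.20, 5.15 and 2.30 CPM to 22.5, 20.7 and 21.8 CPM. The 2 lower members were both desmosome proteins, but other desmosome genes of the list were not lower. PKP3 and JUP were higher without WT replicate 2 (log2 fold-change 0.525 and 0.477), and PKP2 and DSG2 did not pass in either fit. DSP, desmoplakin, fell from 308, 372 and 235 CPM to 89.8, 97.1 and 104.4 CPM, and DSC2, desmocollin 2, from 6.39, 3.99 and 6.39 CPM to 3 counts in all, a ratio of 125.5 with an interval from 42.9 to 608. CDH1, E-cadherin, the defining gene of the list, stayed at 0.799 to 1.77 CPM in WT and 1.00 to 2.20 CPM in SLUG KO. The 2 groups overlapped, and the log2 fold-change was 0.19 ± 0.42 (adjusted p = 0.826), and -0.05 ± 0.35 (adjusted p = 0.933) without WT replicate 2.

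Mesenchymal and matrix genes moved in both directions. With all 6 libraries, 3 of 39 tested members were higher and 4 lower, and without WT replicate 2, 12 of 40 were higher and 8 lower. Beside FN1, COL6A3, a chain of collagen VI, fell from 51.6, 76.1 and 37.8 CPM to 5.91, 6.33 and 5.81 CPM. CDH11, a mesenchymal cadherin, fell from 299, 266 and 283 CPM to 90.7, 81.7 and 102.5 CPM. COL12A1, a fibril-associated collagen, rose from 442, 448 and 355 CPM to 729, 788 and 877 CPM. VIM, vimentin, held 608 to 978 CPM in WT and 709 to 815 CPM in SLUG KO, and its log2 fold-change was -0.12 ± 0.22 (adjusted p = 0.785). Without WT replicate 2 it was -0.30 ± 0.10 (adjusted p = 0.0291).

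With all 6 libraries, the largest share of lower members among the lists was in a list of genes known for bone or lung metastasis of MDA-MB-231 sublines. The lists and their members were chosen with earlier results of these data known, so this ranking is a description only. Of 25 tested members, 11 were lower and 2 higher with all 6 libraries, and 14 were lower and 6 higher without WT replicate 2. The median log2 fold-change was -0.68 and -0.55. Beside ADAMTS1, ROBO1 and IL11, the lower members included MMP1, interstitial collagenase, at 6.73, 5.37 and 8.19 CPM in WT and 0.445, 0.571 and 0.141 CPM in SLUG KO. JAG1, a ligand of Notch receptors, fell from 262, 239 and 252 CPM to 122, 122 and 118 CPM, and CCN2, a matricellular protein, from 144, 174 and 137 CPM to 69.0, 79.9 and 72.7 CPM. The 2 higher members stood well above WT. VCAM1, a vascular adhesion molecule, rose from 11.6, 5.41 and 8.36 CPM to 70.8, 67.8 and 80.3 CPM, and ST6GALNAC5, a sialyltransferase, from 1.17, 0.666 and 1.00 CPM to 7.29, 8.71 and 7.88 CPM.

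**Figure D3:**
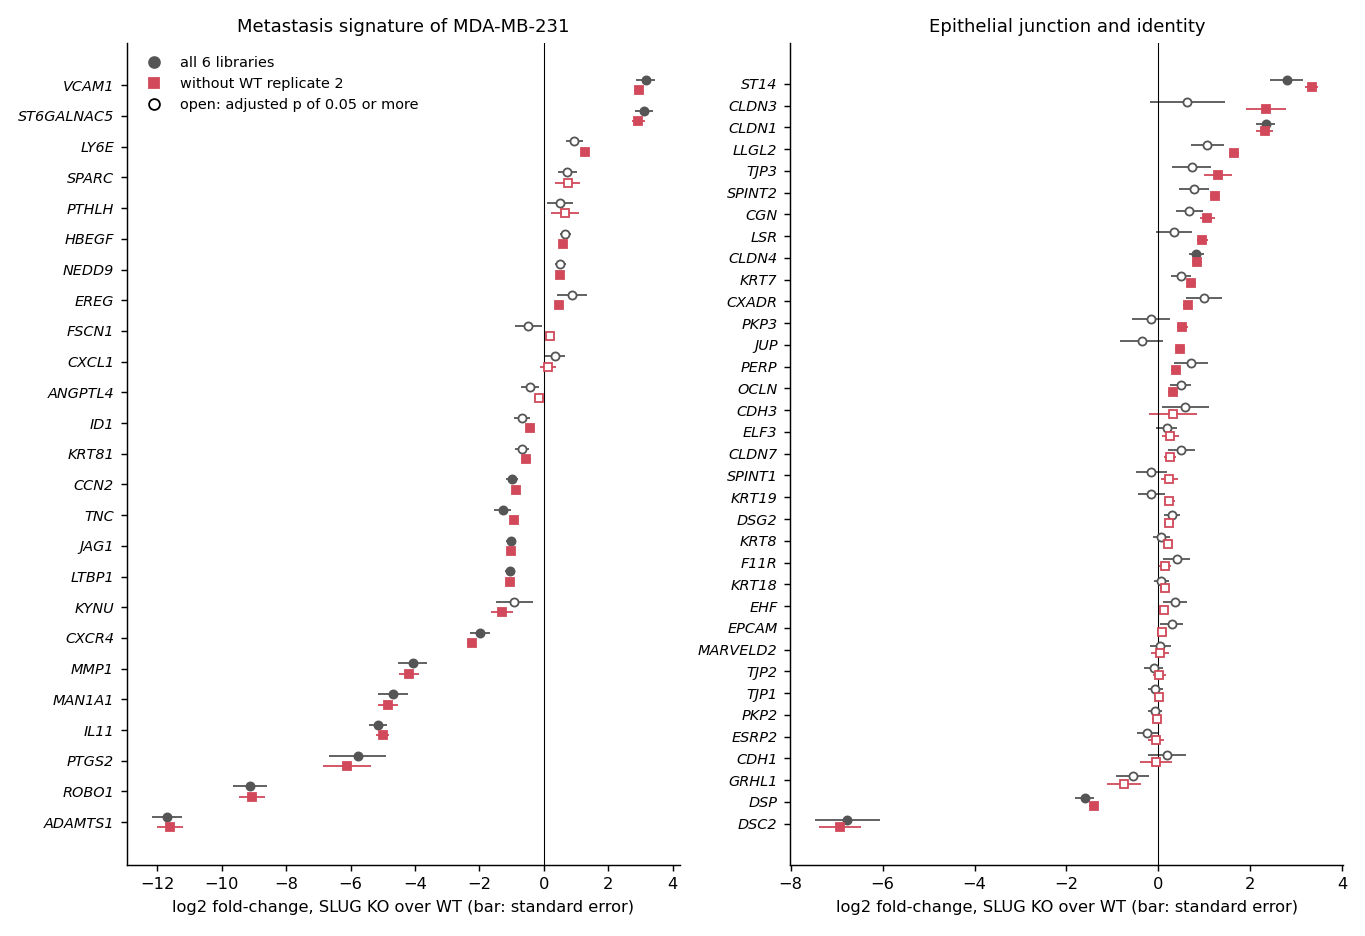
Log2 fold-change of SLUG KO over WT with its standard error (horizontal axis) for tested members of 2 lists, with all 6 libraries (grey circles) and without WT replicate 2 (red squares), filled where the adjusted p was under 0.05. In the metastasis list 11 of 25 members are filled below 0 with all 6 libraries, and in the epithelial list CLDN1 and ST14 are filled to the right of 0 and DSP and DSC2 to the left. Values of genes with 0 or 1 count in SLUG KO, such as ADAMTS1 and ROBO1, depend on the prior count of the fit.

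Cytokine and chemokine genes other than IL11 were higher where they passed the test with all 6 libraries, with 5 of 32 tested members higher and 1 lower. Without WT replicate 2, 15 were higher and 2 lower, and the median log2 fold-change was 0.58. IL24, a cytokine of the IL-10 family, rose from 1.29, 1.02 and 2.51 CPM to 22.4, 23.7 and 22.3 CPM. IL6 rose from 11.4, 6.35 and 8.52 CPM to 34.2, 32.4 and 44.9 CPM, and TNFSF15, a ligand of the TNF family, from 38.1, 17.8 and 34.1 CPM to 104.7, 115 and 124 CPM. The SLUG KO libraries lay above the WT libraries for each of them.

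Proteases and their inhibitors were also split. Of 36 tested members, 4 were higher and 3 lower with all 6 libraries, and without WT replicate 2, 19 were higher and 6 lower. PLAT and PLAU, the activators of plasminogen, were both higher, and PLAU, urokinase, went from 384, 334 and 401 CPM to 932, 847.5 and 920 CPM. SERPINE2, an inhibitor of thrombin and of plasminogen activators, was lower, at 16.0, 13.9 and 15.7 CPM in WT and 6.88, 6.47 and 6.66 CPM in SLUG KO.

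In the TGFβ pathway, 7 of 48 tested members were lower and 1 was higher with all 6 libraries, and 14 were lower and 14 higher without WT replicate 2. The lower members included the secreted products IL11, INHBB and TGFBI, the latent TGFβ binding protein LTBP1 and the inhibitory SMAD6. TGFBI, a matrix protein induced by TGFβ, fell from 116, 121.5 and 107.8 CPM to 49.7, 49.2 and 51.0 CPM, and SMAD6 from 5.69, 8.96 and 5.47 CPM to 1.498, 1.00 and 1.64 CPM.

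Genes of luminal breast cells had 3 lower members of 10 tested with all 6 libraries, and 1 higher and 4 lower of 11 without WT replicate 2. SPDEF, an ETS factor of secretory epithelium, went from 17.99, 41.0 and 19.2 CPM to 0.324, 0.333 and 0.328 CPM. AGR2, a disulfide isomerase that folds mucins, went from 10.2, 3.86 and 9.44 CPM to 1 count, a ratio of 529 with an interval from 95.02 to 20910. TFF3, a trefoil peptide, had 1.38 to 3.09 CPM in WT and 2 counts in SLUG KO, a ratio of 77.0 with an interval from 21.3 to 636. CD24, a surface glycoprotein used with CD44 to sort mammary stem-like cells, went from 13.9, 5.33 and 11.5 CPM to 0.486, 0.428 and 0.281 CPM. The luminal keratins KRT8 and KRT18 did not pass in either fit.

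**Figure D4:**
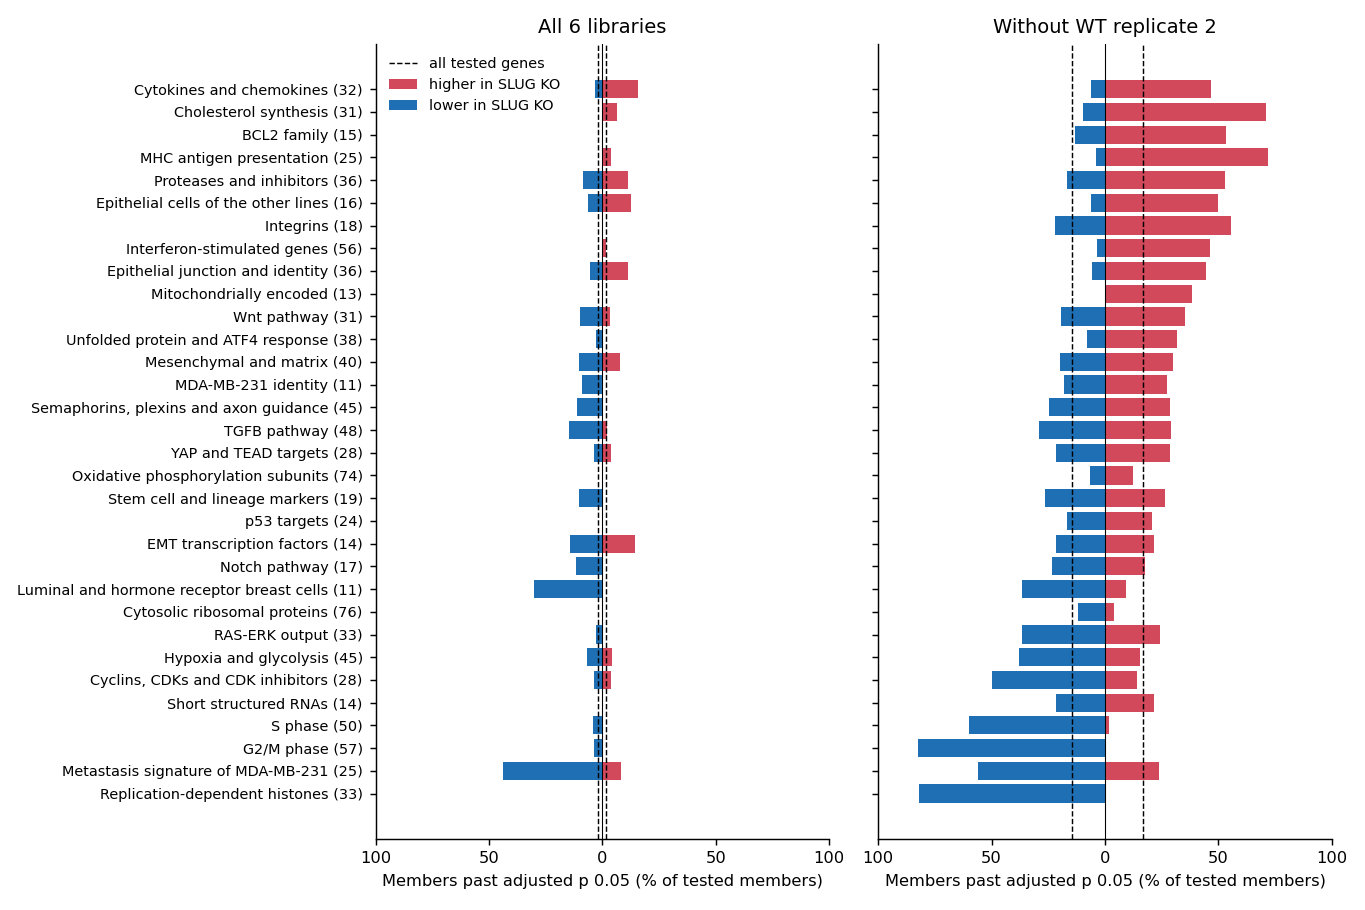
Share of the tested members (horizontal axis, %) of each list that passed the adjusted p, higher in SLUG KO to the right and lower to the left, with the share of all tested genes as dashed lines. Lists with at least 10 members tested without WT replicate 2 are shown, with that number in brackets. The metastasis list reaches furthest left with all 6 libraries (11 of 25), and the G2/M (47 of 57) and histone (27 of 33) lists do so without WT replicate 2. The lists were chosen with earlier results of these data known.

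In the cell cycle lists, 2 of 57 G2/M genes were lower with all 6 libraries in edgeR and 5 in DESeq2, and 22 had an unadjusted p under 0.05. Without WT replicate 2, 47 were lower, while the median log2 fold-change was -0.36 and -0.44. The summed level of the 57 genes was 13470, 11470 and 13380 CPM in WT and 9199, 9347 and 9302 CPM in SLUG KO, so the groups did not overlap with or without WT replicate 2. With offsets for GC content and length and all 6 libraries, 27 were lower. CDCA8, a subunit of the chromosomal passenger complex, stood at 120.1, 93.1 and 126 CPM in WT and 57.5, 56.2 and 55.4 CPM in SLUG KO, and CDC20, an activator of the anaphase-promoting complex, at 213, 278 and 242.5 CPM against 126, 115 and 124 CPM. The Csi libraries, at 8145 to 8430 CPM, were below the SLUG KO libraries for the summed G2/M genes. Csi also held 124.4 to 128.0 CPM of the replication-dependent histone genes, beside 5666 to 12400 CPM in the 6 libraries. Mitochondrially encoded genes summed to 34550 to 45070 CPM in Csi and 6070 to 21090 CPM in the 6 libraries. CPM sums of Csi are therefore not directly comparable with those of the 6 libraries.

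Of 50 S phase genes, 2 were lower with all 6 libraries (10 at an unadjusted p under 0.05, 3 in DESeq2), and 30 were lower and 1 higher without WT replicate 2. RRM2, the regulated subunit of ribonucleotide reductase, went from 278, 214 and 298 CPM to 103.6, 117 and 105.9 CPM, and CLSPN, a mediator of the replication checkpoint, from 155, 183 and 141 CPM to 61.7, 70.0 and 61.8 CPM. Of 33 replication-dependent histone genes none passed with all 6 libraries in edgeR, where 9 had an unadjusted p under 0.05, all lower, and DESeq2 called 1. Without WT replicate 2, 27 histone genes were lower, and the summed levels of the groups lay apart, at 9260 and 12400 CPM in WT and 5666 to 7387 CPM in SLUG KO. Of 28 cyclins, cyclin-dependent kinases and their inhibitors, 1 was higher and 1 lower with all 6 libraries, both of them inhibitors, and 4 were higher and 14 lower without WT replicate 2. CDKN1C rose from 7.204, 7.01 and 7.60 CPM to 23.5, 18.3 and 20.3 CPM, while CDKN2C fell from 55.6, 70.3 and 59.7 CPM to 32.5, 22.1 and 25.8 CPM. CCND1, cyclin D1, held 702 to 954 CPM in WT and 758 to 792 CPM in SLUG KO, with overlapping groups.

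Cholesterol synthesis and antigen presentation genes also passed in more of their members without WT replicate 2. Of 31 cholesterol genes, 2 were higher with all 6 libraries, and 22 were higher and 3 lower without WT replicate 2. DHCR7, which makes cholesterol from 7-dehydrocholesterol, rose from 61.5, 51.5 and 57.6 CPM to 134.5, 114.5 and 134 CPM. Of 25 antigen presentation genes, 1 was higher with all 6 libraries, and 18 were higher and 1 lower without WT replicate 2. That first gene was HLA-DPA1, a class II chain, at 29.0, 14.8 and 31.0 CPM in WT and 68.6, 61.9 and 74.6 CPM in SLUG KO. Of 56 interferon-stimulated genes, 1 was higher with all 6 libraries, IFI27, and 26 were higher and 2 lower without WT replicate 2. IFI27, a mitochondrial and nuclear envelope protein, rose from 49.05, 28.3 and 52.1 CPM to 109.1, 120 and 91.3 CPM.

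Axon guidance genes were lower where they passed with all 6 libraries, 5 of 44 tested, and 13 were higher and 11 lower of 45 without WT replicate 2. SEMA3A, a secreted repellent, fell from 35.3, 20.5 and 33.8 CPM to 8.38, 7.52 and 9.47 CPM, and EPHA5, an ephrin receptor, from 3.49, 4.66 and 3.51 CPM to 0.162, 0.190 and 0.469 CPM. In the Wnt pathway, 1 of 31 tested members was higher and 3 were lower, and 11 were higher and 6 lower without WT replicate 2. LEF1, a nuclear effector of β-catenin, fell from 3.19, 2.80 and 2.67 CPM to 0.283, 0.238 and 0.188 CPM. WNT10A, a ligand, rose from 0.475, 0.621 and 0.543 CPM to 4.01, 2.76 and 3.89 CPM. In the Notch pathway JAG1 and MAML3, a coactivator, were the 2 lower members of 17 with all 6 libraries, and 3 were higher and 4 lower without WT replicate 2.

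Hypoxia and glycolysis genes had 2 higher and 3 lower members of 45 with all 6 libraries, and 7 higher and 17 lower without WT replicate 2. The 2 carbonic anhydrases CA12 and CA9 were lower, CA12 falling from 35.0, 42.6 and 29.6 CPM to 5.91, 6.14 and 7.36 CPM. HK2, hexokinase 2, fell from 111.5, 166 and 93.7 CPM to 37.4, 47.4 and 39.4 CPM, while SLC2A3, a glucose transporter, rose from 35.5, 19.8 and 34.9 CPM to 67.1 to 75 CPM. Of 17 integrins, none passed with all 6 libraries in edgeR or DESeq2, 5 had an unadjusted p under 0.05, and 10 of 18 were higher and 4 lower without WT replicate 2.

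Expression differences were also unevenly placed along the genome. The 50 tested genes nearest the end of the short arm of chromosome 8 (213186 to 11475908, GRCh38) had a median log2 fold-change of -1.08 with all 6 libraries and -1.04 without WT replicate 2, where 34 of the 50 were lower and none was higher. With all 6 libraries 9 of the 50 were lower, and the medians of the other 335 windows ran from -0.613 to 0.511. The medians of the other 343 windows of 50 neighbouring genes ran from -0.505 to 0.525 without WT replicate 2. The summed level of the 50 genes was 585.5, 761 and 527 CPM in WT, 303, 299 and 313 CPM in SLUG KO and 604 to 622.5 CPM in Csi. All 3 SLUG KO libraries were below all WT libraries, and 47 of the 50 genes had a lower mean in SLUG KO than in WT replicates 1 and 3. TNKS, a poly-ADP-ribose polymerase at telomeres, is one of them, named after its values were seen, and stood at 47.8, 43.6 and 39.5 CPM in WT and 16.7, 15.3 and 19.8 CPM in SLUG KO. The next window had a median of -0.43, and the window that holds SNAI2, on the long arm, one of 0.06 without WT replicate 2. Other regions also leaned to 1 side in that fit. On chromosome 1, 518 of 1826 tested genes were lower and 155 higher. The window that holds SOX4 had a median of -0.367, with 22 genes lower and 3 higher. The last window of chromosome 8 had a median of 0.525, with 29 genes higher and 1 lower. With all 6 libraries the SOX4 window had a median of -0.29 and the last window of chromosome 8 one of 0.0309.

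**Figure D5:**
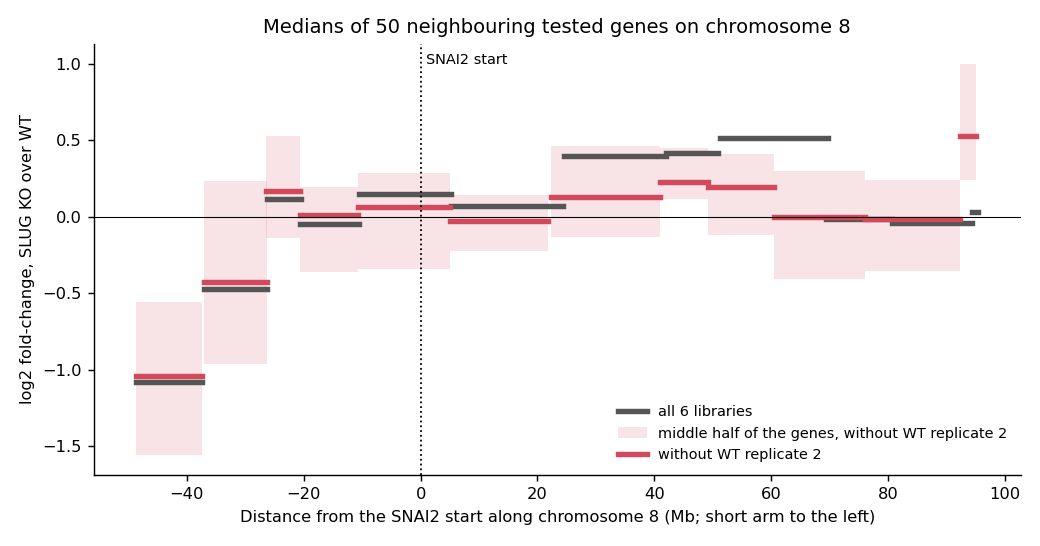
Median log2 fold-change of SLUG KO over WT (vertical axis) in windows of 50 neighbouring tested genes along chromosome 8, placed by distance from the SNAI2 start (horizontal axis, Mb), with the range between the quartiles of each window's genes shaded. The window at the end of the short arm lies at -1.08 with all 6 libraries and -1.04 without WT replicate 2, and the window that holds SNAI2 at 0.15 and 0.06.

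SLUG binds the E-box CAGGTG, which reads CACCTG on the other strand, and the promoters of the DEGs were searched for these letters on both strands. RefSeq promoter windows (250 bases before to 50 bases after the start, GRCh38.p14) were matched by symbol for 11707 of the tested genes. Of these, 18.6% held the motif, as did 20.6% of all 27305 promoters in the table. The share was 30.8% among the DEGs higher in SLUG KO (44 of 143 matched) and 23% among the lower ones (49 of 213 matched). Without WT replicate 2 the shares were 28.4% among 370 matched higher DEGs and 22% (85 of 386) among the lower ones. The shares are descriptions, and no test was made of them.

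Of SOX4, SNAI2 and the other leading coding and non-coding DEGs, 21 had a promoter entry and 5 of these held the motif before the start, 2 of them higher and 3 lower in SLUG KO. These stretches of 30 bases are shown because they are the only such matches among the leading genes with a promoter entry. Each is written 5′ to 3′ on the strand of its gene, with the motif in capitals.
LOXL4, higher in SLUG KO, chr10:98268346-98268375, minus strand: gggcgcccccgcCACCTGgcctgtgtcccg
LINC01234, higher in SLUG KO, chr12:113773773-113773802, minus strand: ttccaggataggCAGGTGaccaaggtttgg
PELI2, lower in SLUG KO, chr14:56118264-56118293, plus strand: cggggcggctccCACCTGcccgcgcgctgg
AFF3, lower in SLUG KO, chr2:100142627-100142656, minus strand: atcctctatcaaCACCTGcacacttgggtt
LINC02970, lower in SLUG KO, chr20:62603507-62603536, minus strand: ggccatggtgggCAGGTGgccacttccgtt
Each motif shown ended between 48 bases (AFF3) and 163 bases (LOXL4) before the start. LINC01234, a long non-coding RNA, rose from 0.777, 1.06 and 0.877 CPM to 4.33, 4.76 and 4.17 CPM, and LINC02970, which held 3 matches of which 1 is shown, went from 3.58, 4.44 and 3.93 CPM to 2 counts, a ratio of 133 with an interval from 36.9 to 1101. The SOX4 window held no match, which says only that these letters are absent from those 300 bases.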

How the data were processed

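Total RNA depleted of ribosomal RNA was sequenced by the authors, trimmed with Trimmomatic, aligned with STAR to GRCh38 with GENCODE 38 and counted with featureCounts (paired, unstranded, mapping quality of at least 30). The deposited values are raw gene counts, 60708 genes per library. Symbols and RNA classes were matched by identifier to GENCODE 44 for 60463 genes. Per-library values are CPM from plain library totals. Fits used edgeR 4.0.16 in R 4.3.3 with TMM scaling, filterByExpr and Benjamini-Hochberg adjustment over all tested genes; the 6 libraries entered without covariates. limma 3.58.1 and DESeq2 1.42.0 were alternatives. The edgeR, DESeq2 and limma-voom fits were tested on simulated counts. GC content came from the longest GENCODE 44 transcript. Named genes were SNAI2, SOX4, the 12 protein-coding and 5 non-coding genes per direction with the smallest adjusted p that were DEGs in both fits with CPM not overlapping, up to 5 members per list with the smallest adjusted p, beside defining members such as ZEB1, CDH1 and VIM, and 10 genes per direction for WT replicate 2. The members and the 34 lists were chosen with earlier results of these data known. The other samples of the series were not used, except Csi. A gene that the naming rule includes is not reported here.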

Additional observations from a re-analysis of the deposited data

How the results depend on the processing

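The count of DEGs depended on the libraries and on the model. Leaving out 1 library each gave 133 to 1329 DEGs (49 to 601 higher, 79 to 728 lower), the highest without WT replicate 2, and without WT replicate 1, WT replicate 3 and SLUG KO replicates 1, 2 and 3 there were 184, 378, 133, 135 and 139. DESeq2 gave 946 (386 higher, 560 lower), no low-count filter 935 (372 and 563), and limma-voom with sample quality weights, which gave WT replicate 2 a weight of 0.0528, 1421 (582 and 839). A filter of at least 10 counts in every library gave 244, of which 113 were lower. The share of higher genes moved from 40.9% to 53.7%. Genes near 0 in either group are not tested under this filter. GC and length offsets, chosen after seeing the data, gave 963 (430 and 533), and 1200 (532 and 668) without WT replicate 2. The cause of the differences between settings was not tested.

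Deviations from the group means had correlations of -0.185, -0.14 and -0.0514 between same-numbered libraries, and of -0.0353 to 0.167 between differently numbered ones. WT replicate 2 weighs on the mean and so on every WT deviation. These values therefore cannot show whether the replicate numbers pair the samples. With the replicate block there were 255 DEGs (87 higher, 168 lower), and the block with GC and length offsets gave 360 higher and 399 lower.

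Of 91 named genes, which leave out the defining members and the genes named for WT replicate 2, none changed direction under the alternatives run. The defining members ZEB1 (log2 fold-change 0.041 and -0.141) and CDH1 (0.192 and -0.052) changed sign without WT replicate 2, passing in neither fit. All 91 kept their side of the adjusted p threshold without WT replicate 2, with DESeq2, with its size factors, with limma-voom and with the GC and length offsets. The leading coding and non-coding genes were chosen as DEGs without WT replicate 2, so for them the result in that fit was fixed in advance. The list members were chosen for passing with all 6 libraries. Calls were lost for 35 and 18 genes without WT replicates 1 and 3, for 42, 43 and 42 without SLUG KO replicates 1, 2 and 3, for 30 with the block, for 9 with the stricter filter and for 3 with no filter. With the stricter filter 54 kept their side, and the remaining named genes were not tested. SOX4 kept its call throughout, and SNAI2 also lost its call with the replicate block (adjusted p = 0.108).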
